A study of Mus musculus with 13 samples.

Results

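Stem cells at the base of the crypts of the mouse small intestine were compared with sorted cells of dim GFP, which the study describes as their immediate descendants. The comparison rests on 7 of the 13 Affymetrix HT MG-430 PM arrays of the series, chosen by their titles: 4 arrays of intestinal cells with bright GFP, called GFP_High, and 3 arrays of intestinal cells with dim GFP, called GFP_Low. All 7 arrays came from C57BL/6 mice that carry the Lgr5-EGFP-ires-CreERT2 allele, in which the Lgr5 locus drives both GFP and a Cre recombinase that acts after tamoxifen. Each sort pooled 3 mice, whose age the sources used here do not state. The titles carry a sort code: sorts A, C and D gave 1 array of each kind, and sort B gave a GFP_High array alone. GFP_High arrays 1 to 4 came from sorts A, B, C and D, and GFP_Low arrays 1 to 3 from sorts A, C and D, and values are given below in these orders. A further label names the opposite Lgr5 level for 3 of the 7 arrays (GFP_High 2, GFP_Low 2 and GFP_Low 3), and the titles were followed. Of the other arrays, 3 of Villus epithelium and 3 of hair bulge cells entered the model only as a source of spread between replicates.

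The epithelium of the small intestine renews itself from stem cells wedged between Paneth cells. Wnt ligands keep these cells in place, and LGR5, a receptor for R-spondins, amplifies the Wnt signal. Daughter cells that leave the base divide further as transit amplifying cells. Notch signalling between neighbours then directs most of them to the absorptive fate, while cells with little Notch activity turn on ATOH1 and become goblet, enteroendocrine, tuft or Paneth cells. The gate for GFP_Low holds whatever cells keep little GFP, so its arrays average over several fates. In such pools, fewer cells of a type and less RNA per cell cannot be told apart.

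Array values are intensities on a linear scale. Differences are GFP_Low minus GFP_High of the mean log2 intensity, written with the standard error of the limma model, and p-values carry a Benjamini-Hochberg adjustment across the 17097 measured genes. Genes with an adjusted p under 0.05 are said to have risen or fallen. The p-values rest on the spread between replicates pooled over all 13 arrays, the Villus and hair bulge arrays included. The small number of arrays limits the precision. A level without expression was set at an intensity of 7.9, the 95th percentile of 84 probe sets of olfactory, vomeronasal and taste receptors, and 10501 genes lay above it in GFP_High or GFP_Low. Where a group mean was below that level, the fold is given as a lower bound.

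GFP_Low 1 had a lower upper quartile of intensity (37.6) than the other 6 arrays (47.8 to 52.1), and it held the lowest value of the GFP_Low arrays for 66.9% of the genes that fell. The median difference of the 10501 genes above the receptor level was -0.16, and it was -0.06 without GFP_Low 1 and 0.00 once each array was centred on these genes. Small differences are therefore read against -0.16. Arrays of 1 kind resembled each other more than arrays of different kinds: r across genes was 0.987 to 0.994 among GFP_High arrays, 0.983 to 0.991 among GFP_Low arrays and 0.960 to 0.974 between them.

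At the step from GFP_High to GFP_Low, 2853 genes changed. GFP_Low was higher for 1080 genes, which is 6.32% of those tested, and lower for 1773, which is 10.4%. The balance of directions rested on the scaling: 37.9% of the changed genes were higher as deposited, 59.4% after centring (1627 higher, 9.52% of those tested, and 1110 lower, 6.49%), and 53.2% without GFP_Low 1 (1198 higher, 7.01%, and 1054 lower, 6.16%). With the sort as a block, in a fit over the 7 GFP_Low and GFP_High arrays alone, the counts were 1125 higher (6.58%) and 1942 lower (11.4%). All results given below with the block come from that fit, which also leaves out the Villus and hair bulge arrays. Centring raises every difference by the same amount, which favours rises. All 1080 genes that rose as deposited also rose after centring, and 1110 of the 1773 that fell still fell. Large changes ran mostly upward: 188 genes rose at least 4-fold and 61 fell at least 4-fold, against 211 and 48 after centring. Of the 2853 genes, 2836 had the same sign within each of sorts A, C and D, and in 2707 the GFP_Low and GFP_High arrays did not overlap. The genes were called on these same arrays, so both counts follow largely from the selection, as does the separation of called genes below. How many of all genes meet either condition was not counted.

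The markers followed the titles. Lgr5, whose locus drives the GFP on which the gates were set and which therefore only checks the labels, had intensities of 793, 533, 577 and 697 in GFP_High and 12.6, 66.1 and 14 in GFP_Low. GFP_Low 2 kept several times more of it than the other GFP_Low arrays, and all 3 stood far below the GFP_High arrays. Ascl2, a Wnt-induced transcription factor that stem cells need, had intensities of 471, 525, 374 and 442 in GFP_High and 26.4, 55.2 and 44.6 in GFP_Low, a difference of -3.48 ± 0.25 (adjusted p = 5.21e-07). Smoc2, which encodes a secreted matrix protein, had intensities of 1109, 900.3, 1030.1 and 1107 in GFP_High and 204, 302 and 269 in GFP_Low, a difference of -2.02 ± 0.18. For these genes no GFP_Low array reached any GFP_High array. Cck, a hormone of enteroendocrine cells, was at 5.9, 13, 8.2 and 7.7 in GFP_High and 633, 493 and 578 in GFP_Low, the largest rise of the comparison (6.08 ± 0.26, adjusted p = 5.66e-09). Tff3, a peptide packed with mucin by goblet cells, was already at 539, 1194, 1045 and 803 in GFP_High and reached 5829.6, 7477 and 6982 in GFP_Low (2.97 ± 0.25). Epithelial identity was shared: Epcam, an adhesion molecule of all intestinal epithelial cells, was at 4471, 4519.6, 4635 and 4394 in GFP_High and 5039.9, 4593 and 4637 in GFP_Low, overlapping ranges with a difference of 0.08 ± 0.12, and Cdh1, E-cadherin, differed by 0.04 ± 0.11.

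**Figure D1:**
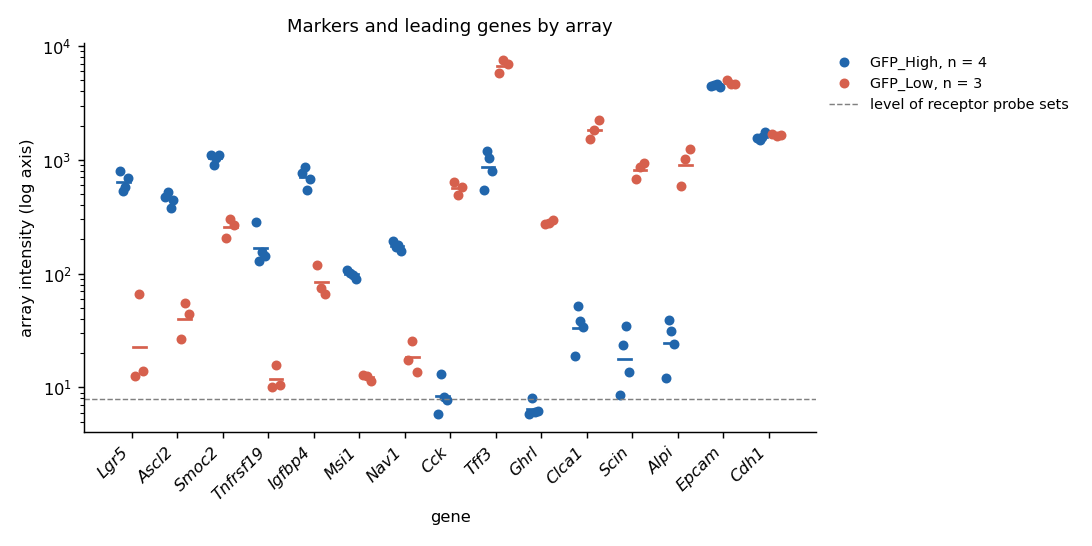
Intensities of markers and leading genes on a log axis, with 1 point for each of the 4 GFP_High and 3 GFP_Low arrays and a bar at the mean of the log values. The dashed line is the level of receptor probe sets (7.9). Stem cell genes on the left lie lower in every GFP_Low array, Cck to Alpi lie higher, and Epcam and Cdh1 overlap.

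The 15 largest falls with separate arrays ran from Lgr5 (-4.82) to Rassf5 (-3.0). Tnfrsf19, also called TROY, a TNF receptor family member induced by Wnt, was at 284, 130.1, 154 and 144 in GFP_High and 10, 15.6 and 10.6 in GFP_Low (-3.84 ± 0.27, adjusted p = 3.87e-07). Gkn3, a secreted gastrokine, was at 1189, 697, 445 and 1062 in GFP_High and 49.8, 70.5 and 59.6 in GFP_Low, with a wide spread among GFP_High arrays (-3.74 ± 0.79, adjusted p = 0.0051). Igfbp4, which binds insulin-like growth factors, was at 765, 859, 547 and 685 in GFP_High and 118, 75.3 and 66.8 in GFP_Low (-3.07 ± 0.39). Msi1, the RNA-binding protein Musashi, was tight in both groups, at 108, 102, 96.8 and 89 in GFP_High and 12.8, 12.5 and 11.5 in GFP_Low (-3.01 ± 0.15). In each of these the groups were apart. Nav1, a protein that steers microtubule ends, fell by 3.26 on the log2 scale and Ripor2, an inhibitor of RhoA, by 3.22. Fstl1, a secreted glycoprotein that binds BMP ligands, lay below the receptor level in GFP_Low on average, so that it was at least 9.12-fold lower. Slc14a1, a urea transporter, fell by 3.39, the sodium channel subunit Scn2b fell by 3.57, and Ccdc3 by 3.25. Some falls varied with the sort. Prelp, a matrix proteoglycan, was at 51.8 in GFP_High 3 and 10.8 in GFP_Low 2, the arrays of sort C, against 261 to 368 and 27.5 to 41.5 in the others. Pcdh8, a protocadherin, went the other way: the arrays of sort C were at 191 and 23.8, against 65.1 to 76.3 and 6.7 to 6.9. The differences within sorts were -2.65, -2.26 and -3.74 in sorts A, C and D for Prelp and -3.51, -3.01 and -3.24 in sorts A, C and D for Pcdh8.

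Of 20 measured transcription factors of the crypt base, 6 fell in the fit over 13 arrays (Ascl2, Sp5, Sox4, Sox9, Myc and Tgif1), beside 10.4% of all genes. The count was also 6 with the block, after centring and without GFP_Low 1. The list median was -0.13 as deposited and 0.03 after centring, so that its sign rests on the scaling. Sp5, a Wnt-induced zinc finger factor, was at 173, 111, 129 and 145 in GFP_High and 18.1, 22.3 and 19.1 in GFP_Low (-2.8 ± 0.16), and the Villus arrays averaged 148. The Villus mean lay within the GFP_High range, and the GFP_Low arrays were the lowest. Sox9 was at 211, 199.7, 241 and 298 in GFP_High and 64.8, 80.2 and 85.7 in GFP_Low (-1.62 ± 0.2) and Sox4, its relative, at 1972, 1674, 1878 and 2003 in GFP_High and 663, 623 and 539 in GFP_Low (-1.63 ± 0.16). Myc, which drives cell growth, was at 353, 304, 452 and 390.4 in GFP_High and 107, 181 and 136 in GFP_Low (-1.43 ± 0.29, adjusted p = 0.0036). Among those that did not pass, Tcf7l2, which encodes the main Wnt effector TCF4 of this epithelium, differed by -0.07 ± 0.23, and Lef1 was listed below the receptor level in all 7 arrays.

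Receptors and feedback genes of the Wnt pathway had no member that rose in the fit over 13 arrays, while 2 receptors rose with the block. Among 18 receptors and co-receptors 6 fell (4 after centring and 4 without GFP_Low 1), and among 20 feedback and inhibitor genes 6 fell. Of all genes 10.4% fell. Axin2, a scaffold of the complex that destroys beta-catenin and a common readout of Wnt activity, was at 628, 526, 605 and 605 in GFP_High and 114, 132 and 95.4 in GFP_Low (-2.39 ± 0.19, adjusted p = 1.29e-06). Rnf43 and Znrf3, ubiquitin ligases that remove Frizzled receptors from the surface and are themselves induced by Wnt, were at 240.4, 161, 214 and 203 in GFP_High and 30.5, 75.2 and 37.5 in GFP_Low and at 148, 124, 132 and 131 in GFP_High and 36.2, 59.6 and 52.1 in GFP_Low. Their differences were -2.2 ± 0.25 and -1.47 ± 0.2. Sfrp5, a secreted Wnt antagonist, fell by 2.64, and Apcdd1, a membrane antagonist, by 1.07. No array of GFP_Low reached the GFP_High range in any of these 5 genes. Of the receptors, Fzd7, which stem cells use to receive Wnt, was at 237, 221, 262 and 243 in GFP_High and 52, 98 and 63.9 in GFP_Low (-1.8 ± 0.18), and Fzd2 fell by 1.55. Lgr4, which binds the same R-spondins as LGR5, was at 1174, 1061, 1052 and 1143 in GFP_High and 505, 797 and 803 in GFP_Low and fell only by 0.69. Fzd6 (-0.7) and Ryk (-0.53) were close to the threshold, and both lost the call after centring (adjusted p = 0.113 and 0.0799) and without GFP_Low 1 (0.227 and 0.19). Fzd5 differed by 0.62 ± 0.22 and the co-receptors Lrp5 and Lrp6 by -0.16 ± 0.17 and 0.06 ± 0.22, and none of these passed the test over 13 arrays. Fzd5 was higher in every GFP_Low array and had an adjusted p of 0.0238 with the block.

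Some of the genes that fell have a TCF site in the promoter window searched, the 250 bases before the RefSeq start in GRCm38.p6. The site was taken as CTTTGAT or CTTTGAA on either strand, which 7.48% of all 32851 promoters and 8.63% of all genes with a promoter hold. It was found in 4 of 14 crypt base factors with a promoter in the table (Sp5 and Tgif1 among those that fell, Mycn and Zbtb38 among the others), in 2 of 11 feedback genes (Tnfrsf19 and Dkk1) and in 0 of 11 receptors. The windows of Sp5 and Tnfrsf19 are shown with the match in capitals because these genes had the largest falls among the genes with a match. A match is a run of letters and no evidence of binding.
Sp5, chr2:70474799-70474845, + strand: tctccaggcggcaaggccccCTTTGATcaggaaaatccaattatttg
Tnfrsf19, chr14:61038163-61038209, - strand: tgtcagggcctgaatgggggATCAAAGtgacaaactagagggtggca

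Of 31 Notch pathway genes 3 rose and 4 fell, shares close to the 6.32% and 10.4% of all genes. Notch1, the receptor that holds stem cells undifferentiated, was at 578, 632, 532 and 557 in GFP_High and 104, 165 and 144 in GFP_Low (-2.09 ± 0.16, adjusted p = 1.16e-06), with the groups far apart. Its ligands Dll1 and Dll4, which secretory progenitors display to their neighbours, were higher in every GFP_Low array: Dll1 was at 124, 178, 179 and 149.5 in GFP_High and 286, 220.3 and 276 in GFP_Low (0.73 ± 0.18), and Dll4, near the receptor level, was at 12.7, 11, 9.6 and 9.2 in GFP_High and 14.2, 19.6 and 17.5 in GFP_Low (0.69 ± 0.15). The other receptors and ligands measured (Notch2, Notch3, Notch4, Dll3 and Jag1) did not pass. The ubiquitin ligase gene Dtx4 fell by 1.33, and Lfng, a glycosyltransferase that tunes the receptor, was at least 1.45-fold lower. Mib1, a ligase that activates the ligands, fell by 0.59 and Psen2, a subunit of the gamma-secretase that cleaves the receptor, rose by 0.46, and neither call held without GFP_Low 1 (adjusted p = 0.22 and 0.146). Hes1, the main Notch target of the crypt, was at 416, 220.2, 553 and 492 in GFP_High and 155, 257 and 272 in GFP_Low. Its GFP_High range contained the 2 higher GFP_Low values, and its difference of -0.85 ± 0.37 had an adjusted p of 0.145 in the fit over 13 arrays and of 0.00276 with the sort as a block, within which it was -1.43, -1.11 and -0.86 in sorts A, C and D.

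Of 37 measured genes of the BMP and TGF-beta pathways, 8 fell, beside 10.4% of all genes, and with the block 3 others rose. The largest fall was that of Rgmb, a co-receptor for BMP ligands, at 503, 353, 426 and 431 in GFP_High and 98.2, 107 and 80.8 in GFP_Low (-2.17 ± 0.16, adjusted p = 6.49e-07). The TGF-beta receptors Tgfbr1 and Tgfbr2 fell by 0.8 and 0.94, the activin receptor Acvr2b by 1.05, and the signal transducers Smad5 and Smad4 by 0.95 and 0.66. Bmp7, a ligand, was at 25.3, 32.4, 26.7 and 27.2 in GFP_High and 11.2, 15.5 and 16.4 in GFP_Low (-0.97 ± 0.18), and Bmp1, a protease that processes matrix proteins, fell by 0.73. All 8 genes had separate arrays, and all 8 fell after centring as well. Without GFP_Low 1 the call of Bmp1 was lost (adjusted p = 0.0535). Id1 and Id3, common BMP targets, differed by -0.4 ± 0.3 and 0.4 ± 0.17 and did not pass. The inhibitory genes Bambi, Smad6 and Smad7 had positive differences that did not pass the test in the fit over 13 arrays (0.83 ± 0.31, 0.81 ± 0.29 and 0.57 ± 0.21), with adjusted p of 0.0214, 0.0147 and 0.0153 after centring.

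Among 23 genes of the EGF family 3 fell and 1 rose, shares close to the 10.4% and 6.32% of all genes. Lrig1, which restrains EGF receptors and marks stem cells, was at 790.4, 613, 545 and 699 in GFP_High and 190.1, 239 and 218 in GFP_Low (-1.61 ± 0.19, adjusted p = 6.81e-05). Nrg4, a ligand of ERBB4, was at 36.7, 44.7, 27.5 and 68.7 in GFP_High and 12, 10.1 and 26 in GFP_Low (-1.52 ± 0.32), and Egfr itself at 85.3, 114, 145 and 95.4 in GFP_High and 53, 77 and 60.2 in GFP_Low (-0.78 ± 0.2). Each gene had separate groups, but the call of Egfr was lost without GFP_Low 1 (adjusted p = 0.0686). Erbb2 and Erbb3 differed by 0.06 ± 0.17 and -0.1 ± 0.17. Eph receptors and ephrins sort cells along the crypt by repulsion, the receptors being high at the base and the B-type ephrins towards the villus. Ephb3 was at 227, 169.5, 159 and 169 in GFP_High and 51.4, 71.6 and 66.9 in GFP_Low (-1.52 ± 0.21) and its ligand Efnb2 at 22.4, 17.8, 44.2 and 21.2 in GFP_High and 165, 177 and 235 in GFP_Low (2.94 ± 0.25, adjusted p = 2.5e-06). The receptor was thus lower and the ligand higher in every GFP_Low array. Efna4 fell by 1.83, Epha4 by 1.23 and Ephb4 by 0.63, and the call of Ephb4 was lost after centring (adjusted p = 0.0855) and without GFP_Low 1 (0.212). In all, 4 of 19 Eph and ephrin genes fell and 1 rose (3 rose without GFP_Low 1), beside 10.4% and 6.32% of all genes. Efnb1 differed by 0.35 ± 0.15 and did not pass.

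**Figure D2:**
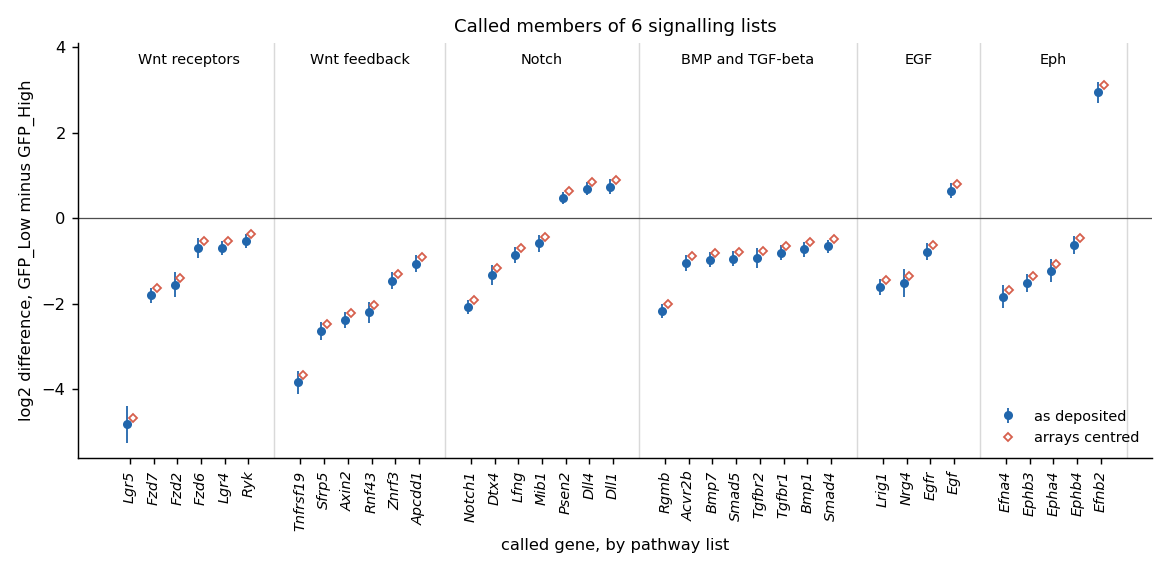
Log2 differences of the members of 6 signalling lists with an adjusted p under 0.05, grouped by pathway. Filled circles are values as deposited with the standard error of the fit. Open diamonds are values after each array was centred on the genes above the receptor level in all 13 arrays. Centring adds the same amount to every difference, and that amount is smaller than any fall shown, so that no sign could turn.

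Many transcription factors of the secretory lineage rose. Of 28 measured, 14 rose and 3 fell, beside 6.32% and 10.4% of all genes, and the same counts of 14 higher were found after centring and without GFP_Low 1. Atoh1, which opens the secretory fate, was at 16.9, 30.9, 34.2 and 23 in GFP_High and 106, 137 and 117 in GFP_Low (2.23 ± 0.21, adjusted p = 4.9e-06). Neurog3, expressed for a short time at the start of the endocrine path, was at 29.1, 89.5, 53.4 and 34 in GFP_High and 242, 124 and 206 in GFP_Low (1.97 ± 0.32), and in the Villus arrays it averaged 4.2, below the receptor level. Neurod1, which acts after it, was at 12, 19.9, 16 and 13.8 in GFP_High and 126, 145 and 149 in GFP_Low (3.2 ± 0.27) and in the Villus arrays still at 84.1. The groups did not overlap for any of these, although GFP_High 2 held more Neurog3 than the other GFP_High arrays. Spdef, which matures goblet and Paneth cells, was at 9.7, 15, 22.1 and 12.2 in GFP_High and 149, 162 and 159 in GFP_Low (3.47 ± 0.21). Insm1, Isl1 and Nkx2-2, endocrine factors that lay below the receptor level in GFP_High on average, were at least 4.49-fold, 6.02-fold and 4.01-fold higher. Bhlha15, Creb3l1 and Creb3l4, which enlarge the secretory apparatus of gland cells, rose by 2.09, 1.74 and 1.75. Against the direction of the list, Mnx1, a homeobox factor, was at 23.7, 26.8, 30.8 and 24.1 in GFP_High and 4.8, 11.9 and 10.2 in GFP_Low (-1.65 ± 0.24), Hes6 fell by 0.88, and Rfx3 fell by 0.57, a call that was lost after centring (adjusted p = 0.0989) and without GFP_Low 1 (0.0649).

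Of 31 factors of the absorptive lineage, 13 rose and 2 fell, beside 6.32% and 10.4% of all genes, and with the 7 arrays alone 7 rose. Hnf4g was at 23.5, 26.9, 34.8 and 36.3 in GFP_High and 67.3, 119 and 143 in GFP_Low (1.81 ± 0.23), whereas Hnf4a, its relative, was at 2475, 2660.1, 2375 and 2263 in GFP_High and 2036, 1932 and 1911 in GFP_Low (-0.32 ± 0.13, adjusted p = 0.116). Hnf4g thus rose while Hnf4a, lower in every GFP_Low array, did not pass the test. Creb3l3, which controls lipid transport genes, was at 12.4, 15.1, 20.4 and 11.2 in GFP_High and 76.4, 134 and 99.8 in GFP_Low (2.81 ± 0.25), and Nr1i3, the xenobiotic receptor CAR, at 7.8, 9.2, 10.5 and 10.2 in GFP_High and 50, 50.7 and 68 in GFP_Low (2.57 ± 0.15). Klf4, which goblet and villus cells express, rose by 1.16, Ppara, a fatty acid sensor, by 1.04, and Maf was at least 1.69-fold higher. Cdx2 and Gata4, which give the intestine its regional identity, differed by -0.23 ± 0.2 and 0.37 ± 0.23. Vdr, the vitamin D receptor, and Ehf, an epithelial ETS factor, went down, at 1294, 1141, 1149.8 and 1322 in GFP_High and 572, 613 and 579 in GFP_Low for Vdr (-1.06 ± 0.15) and 594, 532, 544 and 658 in GFP_High and 274, 249 and 244 in GFP_Low for Ehf (-1.18 ± 0.2). The Villus mean was 1223 for Vdr, within the GFP_High range, and 32.7 for Ehf.

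**Figure D3:**
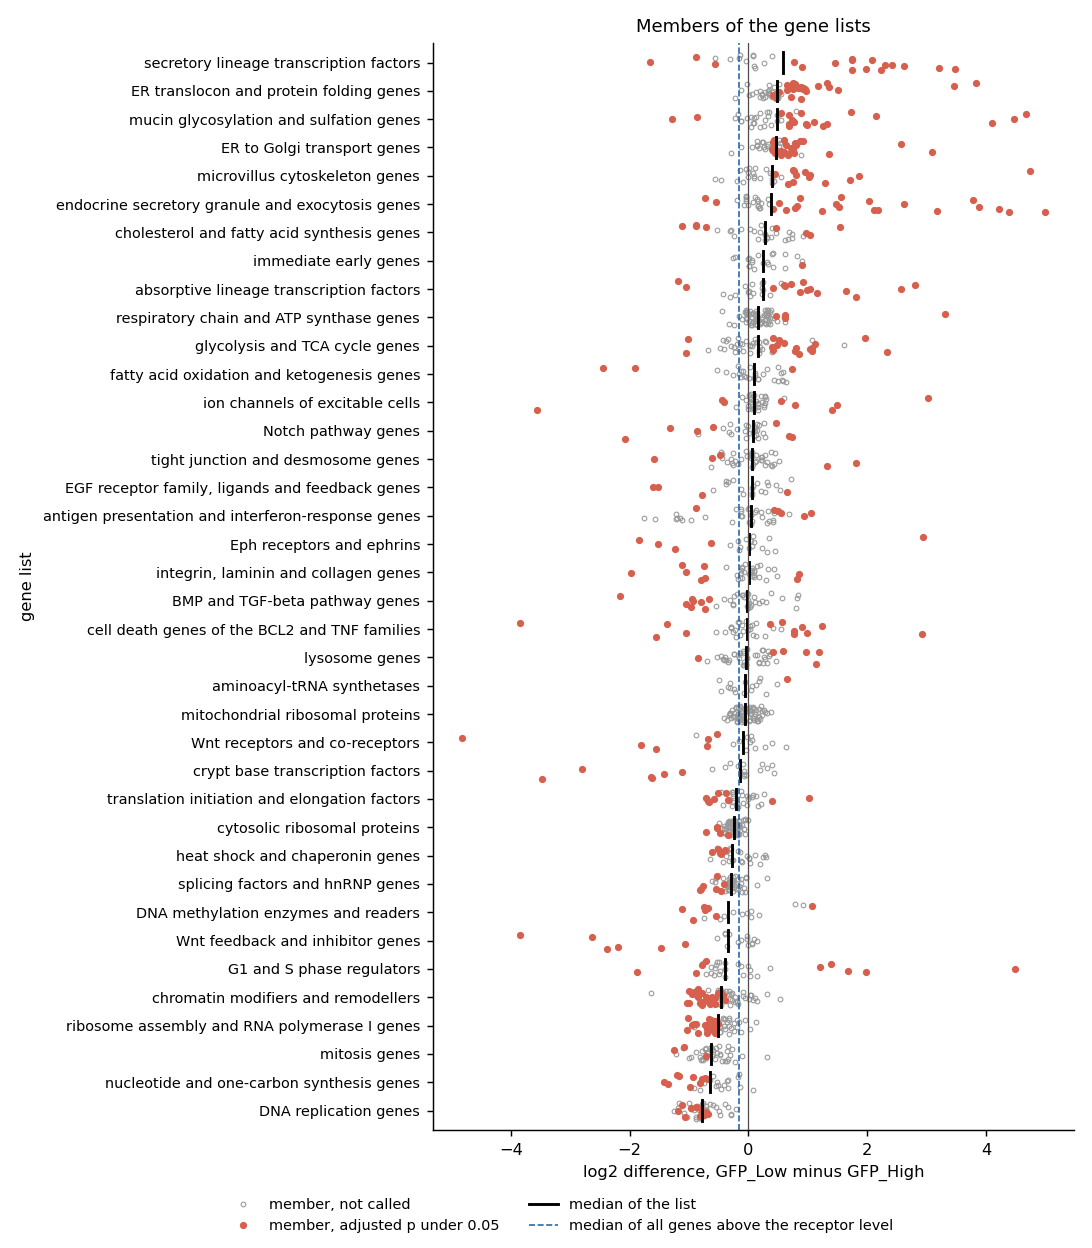
Log2 differences of all measured members of 38 gene lists, ordered by list median. Filled points passed an adjusted p of 0.05, open points did not, black bars are list medians and the dashed line is the median of the genes above the receptor level (-0.16). Lists of replication, nucleotide synthesis, mitosis and ribosome assembly lie at the bottom, and lists of the secretory pathway and its transcription factors at the top.

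Of 7 CDK inhibitor genes in the list of G1 and S phase regulators, 3 rose. Cdkn2b, which encodes the CDK4 and CDK6 inhibitor p15, was at 8.7, 12.8, 15.5 and 9.9 in GFP_High and 205, 312 and 265 in GFP_Low (4.49 ± 0.25, adjusted p = 6.02e-08). Cdkn1a, which encodes p21, was at 51.5, 44.2, 145 and 85.8 in GFP_High and 224, 362 and 296 in GFP_Low (1.98 ± 0.34), and Cdkn1c, which encodes p57, was at least 3.18-fold higher. All GFP_Low arrays exceeded all GFP_High arrays for the 3 inhibitors, while Cdkn1b, p27, was at 244, 319, 206 and 212 in GFP_High and 164, 158 and 199 in GFP_Low (-0.48 ± 0.21, adjusted p = 0.148). Cdkn2c and Cdkn2d differed by -0.4 ± 0.25 and 0.37 ± 0.22 and did not pass, and Cdkn2a was below the receptor level in all 7 arrays. Both kinases that p15 blocks fell. Cdk6 was at 600.1, 492, 696 and 538 in GFP_High and 137, 197 and 146 in GFP_Low (-1.87 ± 0.24, adjusted p = 9.66e-05) and Cdk4 at 843, 882, 879 and 783 in GFP_High and 389, 584 and 422 in GFP_Low (-0.89 ± 0.26), a call lost without GFP_Low 1 (adjusted p = 0.129). Rb1, the pocket protein these kinases phosphorylate, was at 60.6, 62.7, 69.2 and 67.1 in GFP_High and 143, 173 and 201 in GFP_Low (1.4 ± 0.13), with every GFP_Low array at more than the GFP_High range. Cdk1 and Cdk2, which p21 and p57 block, differed by -0.5 ± 0.64 and -0.63 ± 0.21 and did not pass (adjusted p = 0.702 and 0.0542). Of the cyclins that pair with CDK4 and CDK6, Ccnd1 was at 599, 737, 649 and 574 in GFP_High and 609, 403 and 458 in GFP_Low (-0.4 ± 0.37) and Ccnd2 at 1176, 1346, 1731 and 1313 in GFP_High and 1479, 1676 and 1095 in GFP_Low (0.02 ± 0.24), with overlapping ranges. In the list of 31 G1 and S phase regulators, 5 rose and 4 fell over 13 arrays (2 fell without GFP_Low 1), beside 6.32% and 10.4% of all genes. With the sort as a block 5 rose and 11 fell, beside 6.58% and 11.4% of all genes.

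Genes that copy DNA were lower in GFP_Low within each sort, and how many of them passed the test depended on the fit. The median difference of 45 replication genes was -0.79, with medians of -0.92, -0.71 and -0.69 in sorts A, C and D. The medians of all genes above the receptor level were -0.311, -0.055 and -0.067 in these sorts. In the fit over 13 arrays, whose error includes the spread among Villus and hair bulge arrays, 11 fell. In that over the 7 arrays alone 39 fell, with the sort as a block 39, after centring 9 and without GFP_Low 1 only 5. Of all genes 10.4% fell over 13 arrays, 11.4% with the block, 6.49% after centring and 6.16% without GFP_Low 1. Mcm7, a subunit of the replicative helicase, was at 596, 606, 522 and 528 in GFP_High and 200.2, 346 and 282 in GFP_Low (-1.06 ± 0.28, adjusted p = 0.0183). Cdc7, the kinase that fires origins, fell by 1.18, and Pole2, a subunit of DNA polymerase epsilon, by 0.96. Without GFP_Low 1 the calls of Mcm7 and Cdc7 were lost (adjusted p = 0.0913 and 0.0755). Mcm2 was at 248, 261, 342 and 248 in GFP_High and 151, 166 and 128 in GFP_Low, with separate groups and a difference of -0.89 ± 0.5, yet its adjusted p was 0.283 over 13 arrays and 0.00428 with the block. Pcna, the sliding clamp, kept most of its signal, at 2793, 3215, 2987 and 2986 in GFP_High and 2522, 2293 and 2243 in GFP_Low (-0.35 ± 0.12).

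Among 41 mitosis genes the median was -0.63. Within sorts A, C and D it was -0.861, -0.483 and -0.418, beside -0.311, -0.055 and -0.067 for all genes above the receptor level. In the fit over 13 arrays 3 fell, a share below the 10.4% of all genes, while 25 fell with the block (11.4% of all genes), 29 in the 7 arrays alone and 1 after centring. Espl1, which encodes separase, was at 174, 158, 154 and 152 in GFP_High and 52.8, 90.8 and 62.3 in GFP_Low (-1.25 ± 0.31), Ckap2 fell by 1.08 and Kif2c by 0.72, and these 3 calls were lost without GFP_Low 1 (adjusted p = 0.0599, 0.179 and 0.0582). Top2a, a topoisomerase, was at 832, 795, 884 and 807 in GFP_High and 374, 521 and 472 in GFP_Low (-0.88 ± 0.63), and Mki67, the proliferation antigen, at 1098, 1090.4, 1035 and 982 in GFP_High and 664, 800.3 and 777 in GFP_Low (-0.5 ± 0.7). Their adjusted p was 0.421 and 0.734 over 13 arrays and 0.00544 and 0.0566 with the block. In both genes every GFP_Low array lay below every GFP_High array. The standard errors of the fit over 13 arrays include the spread among the Villus and hair bulge arrays. In the Villus arrays Top2a averaged 10.9 and Mki67 20.9, so that GFP_Low was closer to GFP_High than to Villus for both genes. Of 27 genes of nucleotide and one-carbon synthesis, which supply DNA precursors, 10 fell (15 with the block, 9 after centring, 8 without GFP_Low 1). The shares of all genes were 10.4%, and 11.4%, 6.49% and 6.16% in these alternatives. Paics, a purine synthesis enzyme, was at 945, 944, 931 and 1072 in GFP_High and 269, 446 and 399.7 in GFP_Low (-1.42 ± 0.2, adjusted p = 0.000213). Ppat, which opens purine synthesis, fell by 1.35, and Phgdh, which opens serine synthesis, by 1.2.

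Cell cycle motifs were searched in the same promoter windows, as a description of the letters alone. An E2F site, taken as TTTCCCGC or TTTGGCGC, was found in 6 of 36 replication genes with a promoter (16.7%), against 1.3% of all promoters and 1.51% of all genes. The cell cycle homology region TTTGAA, which the TCF letters CTTTGAA contain, was found in 14 of 36 mitosis genes (38.9%), against 16% of all promoters and 18.3% of all genes counted in the same way. Those of Mcm7 and Espl1 are shown because both genes fell in the fit over 13 arrays.
Mcm7, chr5:138172021-138172068, - strand: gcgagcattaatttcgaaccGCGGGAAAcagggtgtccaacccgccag
Espl1, chr15:102296246-102296291, + strand: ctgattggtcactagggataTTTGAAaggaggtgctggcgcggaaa

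**Figure D4:**
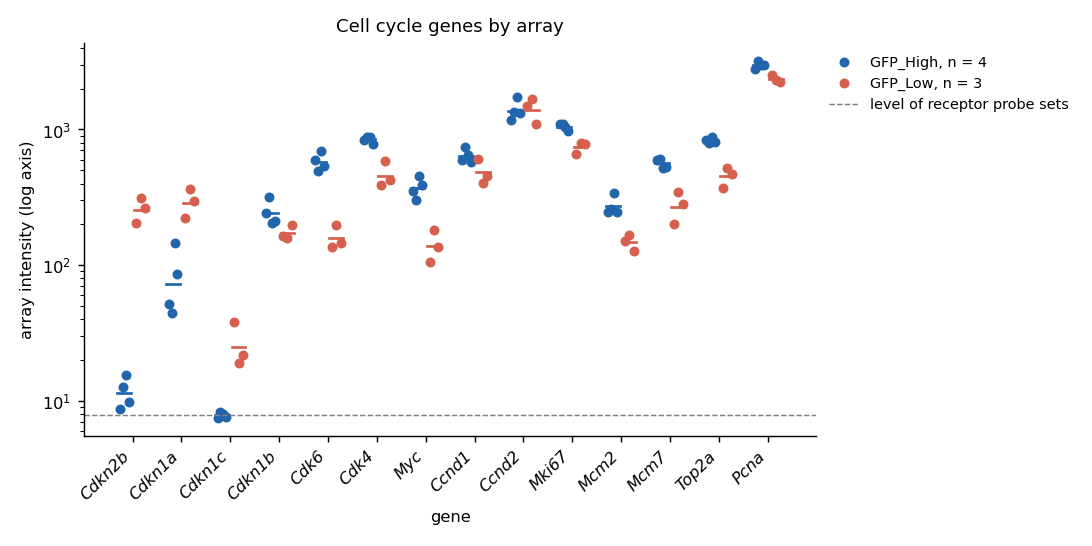
Intensities of cell cycle genes on a log axis, with 1 point per array and bars at the mean of the log values. The CDK inhibitors Cdkn2b, Cdkn1a and Cdkn1c are higher in every GFP_Low array, Cdk6, Cdk4 and Myc are lower, and Ccnd1 and Ccnd2 overlap. The dashed line is the level of receptor probe sets (7.9).

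Genes of ribosome assembly and of chromatin fell beside those of replication. Of 52 genes of ribosome assembly and RNA polymerase I 22 fell (24 with the block, 12 after centring, 9 without GFP_Low 1). Of all genes 10.4% fell (11.4% with the block, 6.49% after centring, 6.16% without GFP_Low 1). The list median of -0.51 lay below the -0.16 of all expressed genes. Dkc1, which modifies ribosomal RNA, was at 593, 626, 706 and 609 in GFP_High and 239, 399.7 and 308 in GFP_Low (-1.03 ± 0.29), and the polymerase subunits Polr1a, Polr1b, Polr1c and Polr1e fell by 0.69, 0.74, 0.88 and 0.91. Without GFP_Low 1 the calls of Dkc1, Polr1a and Polr1e were lost (adjusted p = 0.111, 0.145 and 0.0753). The cytosolic ribosomal proteins had a median of -0.25 and a negative difference in all 66, and 5 fell (1 after centring, 3 without GFP_Low 1), a share below the 10.4% of all genes. Rpl12, one of the 5, was at 4013, 3919.8, 3838 and 4554 in GFP_High and 2762, 3019 and 2984 in GFP_Low (-0.48 ± 0.1), and its call was lost after centring (adjusted p = 0.107). The mitochondrial ribosomal proteins had a median of -0.06. None of 70 passed in the limma fit, 2 had an unadjusted p under 0.05, and the methods' t-test with Benjamini-Hochberg adjustment called 0.

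Among 66 chromatin modifiers and remodellers 24 fell (27 with the block, 12 after centring, 12 without GFP_Low 1), beside 10.4% of all genes. Their median within sorts A, C and D was -0.674, -0.338 and -0.463, beside -0.311, -0.055 and -0.067 for all genes above the receptor level. Polycomb genes, which keep silenced genes off, were among those that fell. Cbx2 and Phc1, subunits of the complex that ubiquitinates histone H2A, were at 42.6, 57.3, 60 and 35.5 in GFP_High and 19.4, 30.5 and 21.3 in GFP_Low and at 47.3, 62.6, 43.9 and 46.9 in GFP_High and 24.4, 23.8 and 26.1 in GFP_Low (-1.04 ± 0.2 and -1.01 ± 0.18), Rnf2, its ligase, fell by 0.79, and Bmi1 fell by 0.57. Ezh2 and Eed, of the complex that methylates lysine 27 of histone H3, fell by 0.78 and 0.65. The calls of Rnf2, Bmi1, Ezh2 and Eed were lost without GFP_Low 1 (adjusted p = 0.167, 0.0906, 0.0684 and 0.0879). Hmgb3, a chromatin architectural protein, fell by 1.0. Of 18 genes of DNA methylation 6 fell and 1 rose, beside 10.4% and 6.32% of all genes, and 4 fell after centring and 3 without GFP_Low 1. Dnmt1, the maintenance methyltransferase, was at 560.4, 575, 674 and 515 in GFP_High and 239, 367 and 321 in GFP_Low (-0.93 ± 0.29, adjusted p = 0.042), a call lost without GFP_Low 1 (adjusted p = 0.17). Its cofactor Uhrf1 was at 325, 377, 515 and 322 in GFP_High and 277, 341 and 238 in GFP_Low (-0.42 ± 0.57), with overlapping ranges. Mbd4, a glycosylase that repairs deaminated methylcytosine, was at 34.2, 54.2, 39 and 43.7 in GFP_High and 17.8, 24.8 and 16.6 in GFP_Low (-1.12 ± 0.2), and Gadd45a, a stress gene linked to demethylation, rose from 131, 106, 156 and 159 to 346, 279.5 and 240.2 (1.07 ± 0.2). The splicing list had 7 of 53 genes lower (3 after centring, 4 without GFP_Low 1) and the chaperonin and heat shock list 5 of 29 (1 and 3), with medians of -0.29 and -0.28, beside 10.4% of all genes.

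**Figure D5:**
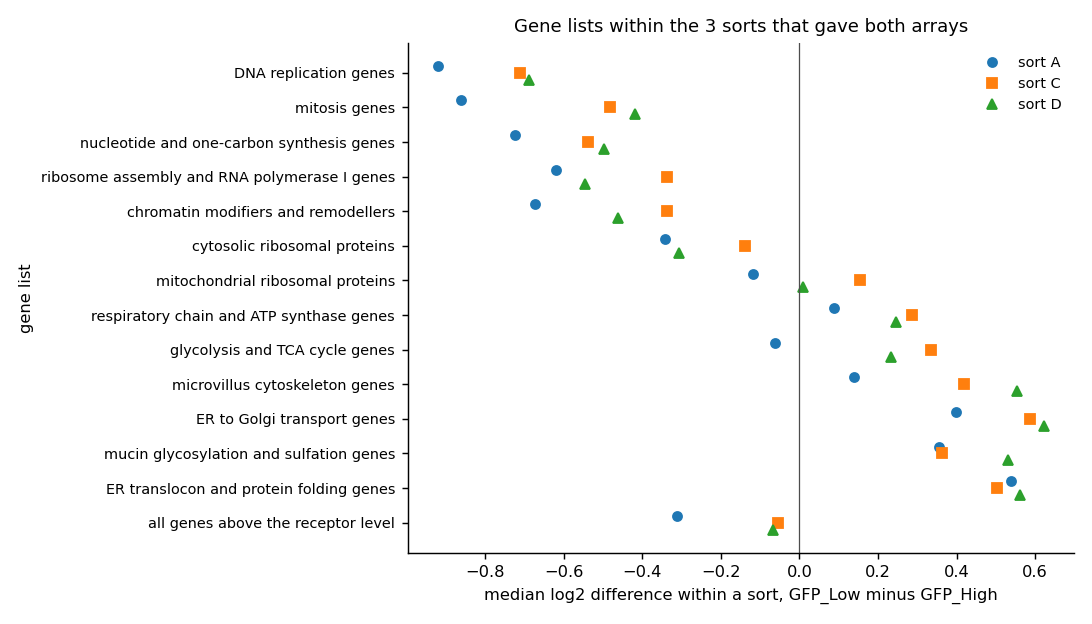
Median log2 difference between the GFP_Low and GFP_High array of the same sort, for 13 gene lists and for all genes above the receptor level. Replication, mitosis, nucleotide synthesis, ribosome assembly and chromatin lists lie below the median of all such genes in each of sorts A, C and D, and secretory pathway lists lie above 0 in each. Sort A, which holds GFP_Low 1, has the lowest median over all such genes (-0.31).

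Genes of the apparatus that makes secreted proteins rose. Of 58 genes of the ER translocon and of protein folding in the ER, 30 rose, beside 6.32% of all genes, with a median of 0.49. Within sorts A, C and D the median was 0.539, 0.502 and 0.562, beside -0.311, -0.055 and -0.067 for all genes above the receptor level. The count of rises was 30 with the block, 31 without GFP_Low 1 and 45 after centring. Agr2, a disulphide isomerase needed to fold intestinal mucin, was at 155, 302, 243 and 217 in GFP_High and 2741, 3134 and 3692 in GFP_Low (3.83 ± 0.19, adjusted p = 3.31e-08). Ern2, the IRE1 sensor of mucus cells, was at 17.5, 22.3, 19.4 and 18.5 in GFP_High and 238, 193 and 214 in GFP_Low (3.47 ± 0.13, adjusted p = 1.95e-09), while Ern1, its ubiquitous relative, rose by 1.17. Xbp1, the factor that IRE1 activates by splicing, was at 1008, 1199, 1249 and 881 in GFP_High and 2529, 1548 and 1701 in GFP_Low (0.81 ± 0.19), and Hspa5, the chaperone BiP, at 1010.1, 1203, 1348 and 1134 in GFP_High and 1384, 1806 and 1827 in GFP_Low (0.51 ± 0.14, adjusted p = 0.0198). The ranges of GFP_Low and GFP_High were apart in all of these, and the call of Xbp1 was lost without GFP_Low 1 (adjusted p = 0.0504). Most rises were modest: Sec61a1, the translocon channel, rose by 0.88, P4hb, a protein disulphide isomerase, by 0.95, and Dnajc3 by 1.36. Hsp90b1 and Canx differed by 0.33 ± 0.15 and 0.19 ± 0.12 and did not pass.

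The ER stress element, CCAAT and CCACG separated by 9 bases and bound by ATF6 with NF-Y, was searched on both strands in the same windows. It was found in 10 of 48 genes of the list with a promoter in the table (20.8%) and in 0.113% of all promoters, or 0.13% of all genes. Of the 10, 7 rose (Hspa5, Calr, Pdia6, Creld2, Dnajc3, Ero1b and Syvn1) and 3 did not pass (Hsp90b1, Canx and Derl3). Among the 23 members that rose and had a promoter, 16 had no match. Windows of 4 genes that rose are given with the element in capitals, on the strand of the gene.
Hspa5, chr2:34772005-34772063, + strand: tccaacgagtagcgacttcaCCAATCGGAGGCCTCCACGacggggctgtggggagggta
Pdia6, chr12:17266471-17266529, + strand: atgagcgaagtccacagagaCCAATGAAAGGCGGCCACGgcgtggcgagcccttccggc
Dnajc3, chr14:118937807-118937865, + strand: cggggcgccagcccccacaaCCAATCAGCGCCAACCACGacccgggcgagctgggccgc
Syvn1, chr19:6046512-6046570, + strand: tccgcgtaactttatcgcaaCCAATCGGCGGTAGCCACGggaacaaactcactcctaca

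Carriers between ER and Golgi rose in 24 of 45 genes (median 0.47), 29 without GFP_Low 1, beside 6.32% and 7.01% of all genes. The largest rises were those of Sec24d, a cargo adaptor of COPII vesicles, at 20.4, 23, 28.8 and 23.7 in GFP_High and 155, 212 and 253 in GFP_Low (3.09 ± 0.18, adjusted p = 7.37e-08), and of Kdelr3, a retrieval receptor, which was at least 5.56-fold higher. Adaptors of 1 family differed: Sec24a and Sec24c rose by 0.76 and 0.44, and Sec24b differed by -0.3 ± 0.15. Mia3, which loads bulky cargo, was at 125, 129.5, 133 and 137 in GFP_High and 244, 218 and 287 in GFP_Low (0.92 ± 0.11). Enzymes that build mucin sugars rose in 17 of 43 genes and fell in 2, beside 6.32% and 10.4% of all genes. Papss2, which makes the sulphate donor, was at 24.4, 54.4, 33.3 and 31.4 in GFP_High and 872, 582 and 1315 in GFP_Low (4.67 ± 0.3), St3gal4, a sialyltransferase, at 24.2, 37.5, 36.8 and 24.4 in GFP_High and 739, 629 and 634 in GFP_Low (4.47 ± 0.21), and Gcnt3, which branches mucin glycans, at 7.8, 20.5, 18.5 and 8 in GFP_High and 219, 198 and 224 in GFP_Low (4.11 ± 0.33). The arrays of the groups were far apart for these 3 genes. St3gal3, a relative of St3gal4, went down, from 72.3, 90.1, 106 and 60.6 to 23.7, 48.6 and 30.5 (-1.3 ± 0.24), and St6galnac2 fell by 0.87.

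Of 40 genes of endocrine granules and regulated exocytosis 20 rose and 2 fell, beside 6.32% and 10.4% of all genes. Chga and Chgb, the chromogranins that fill endocrine granules, were at 11.4, 28.5, 10 and 11.8 in GFP_High and 390.3, 461 and 495 in GFP_Low for Chga and 101, 194, 153 and 101 in GFP_High and 2625, 2389 and 3332 in GFP_Low for Chgb (5.0 ± 0.29 and 4.39 ± 0.23). Cpe, which trims prohormones, was at least 15.2-fold higher. Ghrl, which encodes ghrelin, lay below the receptor level in GFP_High on average and was at least 35.9-fold higher, at 275, 279 and 297 in GFP_Low. Gcg, which encodes glucagon-like peptides, was at 10.8, 20.8, 14.9 and 9.9 in GFP_High and 731, 418 and 673 in GFP_Low, Gip at 33.8, 102, 108 and 35.4 in GFP_High and 2142, 2734 and 2524 in GFP_Low and Tac1, which encodes substance P, at 27.7, 54.3, 31 and 30.5 in GFP_High and 941, 758 and 1111 in GFP_Low. Hormones of several endocrine cell types thus rose. Tac1 had a Villus mean of 27.6, close to the lowest GFP_High array, and Gcg of 57.4, whereas Gip was at 1656 there. Ion channels of excitable cells were mostly at the receptor level, with 13 of 39 above the receptor level in either group. Trpa1, an irritant-gated channel of enteroendocrine cells, was at least 7.82-fold higher, and Scn3a, a sodium channel, at least 1.35-fold.

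Markers of mature cells stood beside these in the same arrays. Alpi, the alkaline phosphatase of enterocytes, was at 12.2, 38.8, 31.6 and 24.1 in GFP_High and 584, 1020.0 and 1240.0 in GFP_Low (5.21 ± 0.33, Villus mean 7074), and Slc2a2, a sugar transporter, at 7.2, 12.2, 11.7 and 9.6 in GFP_High and 274, 203 and 404 in GFP_Low (4.82 ± 0.23, Villus mean 2799). Both had left the GFP_High range in all GFP_Low arrays and were well below the Villus level. Clca1, a goblet cell product, was at 18.7, 52.2, 38 and 33.7 in GFP_High and 1519.8, 1812 and 2224 in GFP_Low (5.77 ± 0.26), and Guca2a, which encodes guanylin, at 60.6, 89.5, 119 and 69.2 in GFP_High and 2232, 2213 and 2128 in GFP_Low (4.74 ± 0.25), with a Villus mean of 805. Scin, an actin-severing protein, was at 8.6, 23.6, 34.8 and 13.7 in GFP_High and 677, 859 and 931 in GFP_Low (5.53 ± 0.35), and Hepacam2, an adhesion protein of secretory cells, at 8.3, 16.8, 18.4 and 13.6 in GFP_High and 367, 321 and 390.1 in GFP_Low (4.71 ± 0.23). Of 34 genes of the microvillus cytoskeleton 13 rose, beside 6.32% of all genes. Krt20, a keratin of differentiated cells, was at 14.2, 27.8, 28.1 and 12.5 in GFP_High and 457, 458 and 649.9 in GFP_Low (4.74 ± 0.27), Cdhr5, which links the tips of microvilli, at 83.7, 83.8, 90.6 and 76 in GFP_High and 264, 306 and 340.3 in GFP_Low (1.86 ± 0.13), and Myo1a, the brush border myosin, at 354, 376, 292 and 363 in GFP_High and 674, 803 and 1122 in GFP_Low (1.3 ± 0.23). Vil1, villin, rose by 0.66, and Ezr, ezrin, differed by 0.4 ± 0.2 without passing.

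Of 35 integrin, laminin and collagen genes 6 fell and 2 rose, beside 10.4% and 6.32% of all genes. Itga6, a laminin receptor, was at 1029.9, 919, 1022 and 998 in GFP_High and 642, 558 and 589 in GFP_Low (-0.74 ± 0.15), Lamb3, a laminin chain, fell by 1.98, and Sdc4, a heparan sulphate proteoglycan, by 1.12. Of 43 tight junction and desmosome genes 2 rose and 3 fell, shares below those of all genes, and 6 fell with the block and 1 after centring. Cldn23, a claudin, was at 78.3, 75.8, 93.3 and 108 in GFP_High and 229, 399.6 and 326 in GFP_Low (1.82 ± 0.21), and Cgnl1, which encodes paracingulin, fell by 1.59.

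Of 50 genes of glycolysis and the TCA cycle 15 rose and 2 fell, beside 6.32% and 10.4% of all genes. Pfkp, a phosphofructokinase, was at 62.3, 89.8, 114 and 67.5 in GFP_High and 286, 449 and 521 in GFP_Low (2.33 ± 0.24, adjusted p = 1.54e-05), and Aldoa, an aldolase, at 340.2, 403, 443 and 322 in GFP_High and 959, 726 and 693 in GFP_Low (1.07 ± 0.15). The hexokinases went apart: Hk1 rose by 0.86 and Hk2 was at 537, 415, 625 and 624 in GFP_High and 303, 223 and 268 in GFP_Low (-1.05 ± 0.26). Pck2, the mitochondrial phosphoenolpyruvate carboxykinase, fell by 1.02, and G6pc, which releases free glucose, was at least 2.78-fold higher. Of 70 respiratory chain genes 4 rose, a share below the 6.32% of all genes, while 7 rose with the block and 14 after centring. A positive difference was found in 56, and the median was 0.16 beside -0.16 for all genes above the receptor level. Within sorts A, C and D the list median was 0.087, 0.286 and 0.247, beside -0.311, -0.055 and -0.067 for those genes. Cox7a1, a subunit isoform of cytochrome oxidase known from muscle, was at 10.2, 28.5, 14.4 and 18.3 in GFP_High and 104, 159 and 275 in GFP_Low (3.32 ± 0.33, adjusted p = 1.19e-05), while Cycs, cytochrome c, rose by 0.62 and Uqcrfs1 by 0.47. In fatty acid oxidation 1 of 30 genes rose and 2 fell, shares below those of all genes, and 8 rose after centring and 7 without GFP_Low 1. Those that fell, the acyl-CoA thioesterases Acot1 and Acot2, were at 73, 68, 156 and 108 in GFP_High and 7.3, 53.4 and 13.8 in GFP_Low and 94, 97.1, 138 and 135 in GFP_High and 16.6, 69 and 24.3 in GFP_Low, and in both GFP_Low 2 stood near the GFP_High range. Of 32 genes of cholesterol and fatty acid synthesis 4 rose and 4 fell (8 and 4 with the block, 9 and 3 after centring), beside 6.32% and 10.4% of all genes. The fatty acid desaturases Fads1, Fads2 and Fads3 fell by 1.12, 0.88 and 0.88, while Elovl6, an elongase, was at 134, 149.8, 156 and 121 in GFP_High and 375, 461 and 391 in GFP_Low (1.55 ± 0.34), and the sterol enzymes Msmo1 and Sc5d rose by 1.04 and 0.98. Of 43 lysosome genes 5 rose (9 after centring) and 1 fell, beside 6.32% and 10.4% of all genes. Among those that rose was the proton pump subunit Atp6v0d1, at 79.5, 80.5, 91.9 and 83.1 in GFP_High and 147, 214 and 218 in GFP_Low (1.18 ± 0.15).

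Of 36 cell death genes 8 rose, beside 6.32% of all genes, and 4 fell, a share close to the 10.4% of all genes. Bcl2, which protects cells from death, was at 58.2, 66.9, 51.1 and 52.7 in GFP_High and 18.4, 20.9 and 18.7 in GFP_Low (-1.56 ± 0.27, adjusted p = 0.00119), and Tnfsf10, the death ligand TRAIL, at 229.5, 192, 174 and 231 in GFP_High and 87.8, 59.8 and 94.1 in GFP_Low (-1.38 ± 0.18). Each was lower in all GFP_Low arrays. The death receptor gene Fas was at 7.8, 10.6, 6.2 and 7 in GFP_High and 17.9, 16.8 and 20.4 in GFP_Low, at least 2.32-fold higher, Bad, which opposes BCL2, rose by 0.98, the effector caspase gene Casp6 by 0.91, and Bcl2l15 was at least 4.47-fold higher. Translation factors had 7 of 36 genes lower and 2 higher, beside 10.4% and 6.32% of all genes, and 4 lower with the block, 3 after centring and 4 without GFP_Low 1. Eif3e and Eif3h fell by 0.66 and 0.68, Eif4e, the cap-binding protein, was at 22.9, 13.4, 19.8 and 22.7 in GFP_High and 27.4, 40 and 54 in GFP_Low (1.02 ± 0.24), and Eif3f rose by 0.39, with an adjusted p of 0.0729 under the block and a sign that turned, to -0.11, when all its probe sets were averaged. Of 21 immediate early genes, which respond to handling as well as to signals, 1 rose in the fit over 13 arrays, Junb, at 105, 64.1, 176 and 126 in GFP_High and 191, 223 and 204 in GFP_Low (0.9 ± 0.25, adjusted p = 0.0507 without GFP_Low 1), and 3 rose and 2 fell with the block.

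Class II antigen presentation separated the sorts more than the gates. H2-Aa was at 1309, 1563, 43.3 and 1126 in GFP_High and 630.3, 13.7 and 782 in GFP_Low, and Cd74, the invariant chain, at 547, 606, 22.1 and 456 in GFP_High and 348, 9.4 and 338 in GFP_Low. The array of sort C was by far the lowest of each kind for both genes. H2-Eb1 behaved alike, at 937, 907, 19.5 and 693 in GFP_High and 229, 12.5 and 319.9 in GFP_Low. Within sorts GFP_Low was lower, with differences of -1.05, -1.66 and -0.53 in sorts A, C and D for H2-Aa and of -2.03, -0.64 and -1.12 in sorts A, C and D for H2-Eb1, and the adjusted p was 0.557 and 0.477 over 13 arrays and 0.0127 and 0.0125 with the sort as a block. These 3 genes were chosen after their values were seen. In the whole list of 40 antigen presentation and interferon genes 5 rose and 1 fell over 13 arrays, beside 6.32% and 10.4% of all genes. With the block 3 rose and 7 fell, beside 6.58% and 11.4% of all genes.

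Markers of cells outside the epithelium were mostly at the level of receptor probe sets. Ptprc, carried by all leukocytes, was at 4, 4.6, 3.7 and 4.5 in GFP_High and 4.3, 4.4 and 3.6 in GFP_Low, and 13 of 18 T lymphocyte markers were not above the receptor level in either group. The summed intensity of that list was 112 to 141 in GFP_High and 109.5 to 129.7 in GFP_Low, 0 of its genes passed in the limma fit, 0 had an unadjusted p under 0.05, and the methods' t-test called 0. Of the B cell and myeloid markers 14 of 19 were not above that level, and the list's sum of 2294 to 4669 in GFP_High and 7754 to 12801 in GFP_Low was almost wholly Lyz2. Lyz2, a lysozyme that Paneth cells share with macrophages, was at 4346, 4452, 2138 and 4503 in GFP_High and 7589, 8489 and 12665 in GFP_Low (1.34 ± 0.32, adjusted p = 0.0115). It shares sequence with Lyz1, so that the gene behind the signal is uncertain. Of 19 stromal, endothelial and muscle markers 15 were not above the level, and 1 rose: Vim, vimentin, at 5.8, 8.8, 12.6 and 7.6 in GFP_High and 185, 90.8 and 138 in GFP_Low (3.98 ± 0.49, adjusted p = 7.68e-05). The list's sum was 117 to 208 in GFP_High and 246 to 295 in GFP_Low. Neuron and glia markers were not above the level in 8 of 10 cases, with Nefm, a neurofilament, at least 1.49-fold higher, and red blood cell markers in 2 of 3. The part of other cells in the rises of Vim, Lyz2 and Nefm was not tested.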

How the data were processed

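The 13 arrays were Affymetrix HT MG-430 PM GeneChips, and the authors deposited 1 table of intensities per probe set, made with the RMA-sketch workflow of Affymetrix Power Tools (version not given in the labels or methods read), which corrects background and normalizes arrays before it summarizes probes. RMA draws arrays together, so that a shift shared by most genes is partly removed. The deposited intensity values are linear and were converted here to log2 with nothing added. Of 45141 probe sets, 28898 had a single gene in the platform annotation, 551 had several and 15692 were not in that table. Symbols were checked against RefSeq (28689 matched), which changed 0 of them. Of the 17097 genes, 7180 had more than 1 probe set, of which the one with the highest mean over all arrays was kept.

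Differences were tested with limma 3.58.1 in R 4.3.3 (lmFit and eBayes) over all 13 arrays, with Benjamini-Hochberg adjustment. The sort was also fitted as a fixed block over the 7 GFP_Low and GFP_High arrays alone, and the block names this fit. It differs from the fit over 13 arrays both in the block and in leaving out the Villus and hair bulge arrays. A further fit took the sort as a random block over all 13 arrays. Deviations from the group means were correlated between GFP_Low and GFP_High arrays of the same sort (0.349 in A, 0.543 in C and 0.400 in D). Between arrays of different sorts the correlations ran from -0.352 to 0.094. The sort codes stand in the titles. By rule the text could name the 5 markers, the 15 largest called changes in each direction with arrays that did not overlap, up to 4 leading and 2 opposing called members of each list, and every called transcription factor and signalling gene. Other list members are named for their role and were chosen after their values were seen. The members and the 43 gene lists were chosen with earlier results of these data known. Alternatives were the fixed block, the random block, the 7 arrays alone, quantile normalization, centring, 16 added before log2, a filter at the receptor level, the mean of all probe sets, the methods' t-test and leaving out each array. In simulated data, 78.7% of genes changed by 1 on the log2 scale and 98.2% of those changed by 2 were recovered, and 5.04% of calls were false. The simulation drew independent normal noise with the same spread of a gene in all groups, no sort effect, no shifted array and 200 changed genes per run. The arrays differ from it in the sort correlations above and in GFP_Low 1, so these percentages may not hold for them.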

Additional observations from a re-analysis of the deposited data

Results flagged for a closer look

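In the 4 GFP_High arrays, 1 array stood apart from the other 3 by Dixon's criterion for 16 of the 217 named genes, where chance gives about 1 in 20. Of the 16, 8 were in GFP_High 3, the array of sort C. GFP_High 3 was the highest for Pcdh8 (191.3, against a median of 68.3 in the other arrays), Rassf5 (274.2 against 181.5), Ndufv3 (1068.6 against 934.1), Sdc4 (1841.4 against 1432.9), Cacna2d1 (6.7 against 5.9) and Ifit3 (6.5 against 5.7). It was the lowest for Fzd2 (17.3 against 39.6) and Lyz2 (2137.5 against 4452.4). GFP_High 2 was the highest for the endocrine genes Chga (28.5 against 11.4) and Tac1 (54.3 against 30.5) and the lowest for Unc13b (137.7 against 178.0). GFP_High 1 was the lowest for Isl1 (6.2 against 8.5), Ppara (33.5 against 56.6) and Lfng (8.7 against 12.5). GFP_High 4 was the highest for Paics (1071.9 against 944.0) and Itga3 (25.3 against 21.8). The cause of these differences was not tested.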

How the results depend on the processing

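Over all genes, 2853 changed, 1080 higher and 1773 lower, with 492 and 489 at least 2-fold. Leaving out 1 array gave 2177 to 2829 changed genes, 824 to 1198 higher and 1054 (without GFP_Low 1) to 1904 (without GFP_Low 2) lower, and at least 2-fold 445 to 577 higher and 357 to 662 lower. Centring gave 1627 higher and 1110 lower, with 312 lower at least 2-fold. Adding 16 before log2 left 318 higher and 214 lower at least 2-fold, since it shrinks folds of dim genes. The methods' t-test after adjustment gave 1595 genes, 656 higher and 939 lower. With the sort as a block 3067 genes changed, 1125 higher and 1942 lower. Of the 217 named genes 151 kept their direction and their side of the threshold under all 15 alternatives, 11 lost the call with the block and 22 after centring. Leaving out 1 array cost 19 to 38 of them the call, most without GFP_Low 3 (38) and GFP_Low 1 (33). Eif3f reversed, to -0.114 with the mean of its probe sets. Of 88 named genes with a further probe set above the receptor level, 4 had one of opposite sign (Mib1, Egfr, Sc5d and Eif3f). Signals near the receptor level of 7.9 limit what folds of dim genes can show, and 3 and 4 arrays limit the smaller differences.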

Other observations

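Among the 15588 probe sets without a gene in the annotation table, 324 were higher and 733 lower in GFP_Low by the same test.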
